A study of Mus musculus with 16 samples.

Results

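The cell division and DNA replication machinery of the small intestinal epithelium was followed through 45 named genes, taken by symbol from the 24421 genes counted in every library. The list holds the proliferation markers Mki67 and Top2a, 7 cyclins, 3 cyclin-dependent kinases, 3 regulators of Cdk1 activation and anaphase, 9 origin licensing genes, 4 genes of the replication fork and nucleotide supply, 6 mitotic kinases and checkpoint genes, 4 spindle genes, 3 centromere and kinetochore genes and 4 transcription factors. The rule is by name and uses no measured value, though the list was drawn up with earlier results of these data known. All 45 were found and passed the filter on low counts, which kept 13429 genes. The study asked how the neonatal jejunum and ileum differ in handling milk protein and set neonatal mice at postnatal day 6 (P6), before weaning, beside weaned mice at day 36 (P36). RNA was sequenced from epithelial cells released with EDTA from the jejunum and the ileum of C57BL6/J wild-type mice, with 4 mice at each age, 2 female and 2 male, each giving 1 jejunum and 1 ileum library. The groups were therefore P6 jejunum, P6 ileum, P36 jejunum and P36 ileum, each with n = 4, and replicate 1 to 4 names the same mouse in both regions. All libraries are labelled wild type, and no treatment is given for them. The tissue of P36 mice could stay in EDTA somewhat longer than that of P6 mice.

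A cell divides by passing through ordered phases. In G1, cyclin D with Cdk4 or Cdk6 phosphorylates the retinoblastoma proteins and releases E2F factors, which switch on the genes of DNA replication. Origins are licensed when Cdc6 and Cdt1 load the Mcm2-7 helicase, cyclin E and cyclin A with Cdk2 then start S phase, and cyclin B with Cdk1 drives mitosis, which ends when Cdc20 directs the anaphase-promoting complex to destroy cyclin B. Many genes of G2 and mitosis share a late programme set by the Myb-MuvB complex and Foxm1. In the mature small intestine division is confined to the crypts, where stem cells and transit-amplifying cells renew the villus. At birth the mouse intestine has no true crypts, division takes place in the regions between villi, and crypts with Paneth cells form in the following weeks.

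The 16 libraries held 12159237 to 25947276 counts, and a member's count was never below 43 in any library. Levels are given as CPM, a gene's count relative to the size of its library, after scaling by the trimmed mean of M values (TMM) of edgeR. The 7 epithelial genes checked (Epcam, Cdh1, Vil1, Krt8, Krt18, Krt20 and Cldn7) summed to 4020 to 6700 CPM at P6 and 11281 to 17062 CPM at P36. P6 ileum replicate 2 carried 188 CPM of 5 smooth muscle genes and 245 CPM of 6 fibroblast genes, against 0.237 to 2.99 CPM and 5.27 to 61.9 CPM in the other 15 libraries. P6 ileum replicate 4 had the lowest epithelial sum. Its Krt8 was at 256 CPM, against 1113 to 1331 CPM in the other P6 ileum libraries. Epcam was at 1747 CPM against 1834 to 2139 CPM, and Cdh1, at 867 CPM, was the highest of the group. Its deviations from the group mean followed the GC content of the transcripts, with Spearman's rho of -0.754 over 12948 genes, against 0.417 to 0.595 in the other P6 ileum libraries. Over the 45 cell cycle genes the same rho was -0.872. Counts of calls among all 45 genes are also given without each of these 2 libraries. Medians, counts by phase, sums and ratios use all libraries.

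The cell cycle genes were higher at P36 than at P6 in both regions. Their summed level was 1512, 1321, 1749 and 1419.9 CPM in the P6 jejunum. Ileum libraries of that age summed to 1321, 1119, 1342 and 1480.4 CPM. At P36 it was 2078, 2659.6, 2433 and 2139 CPM in the jejunum and 2426, 3794, 3984 and 2628 CPM in the ileum. Every P36 library lay above every P6 library, and the genes took 0.116% to 0.164% of all counts at P6 and 0.191% to 0.448% at P36. In bulk RNA, fewer dividing cells and less RNA per dividing cell cannot be told apart. A gene was said to rise or fall when its adjusted p was under 0.05 in the quasi-likelihood test of edgeR, with adjustment over all 13429 genes. Of the 45 genes, 30 rose and 2 fell from P6 to P36 in the jejunum, where 51.6% of all genes tested passed (24.7% rose and 26.9% fell). In the ileum 39 rose and 1 fell, where 55.7% of all genes tested passed (25.5% rose and 30.1% fell). The ileal count of 39 was the same without P6 ileum replicate 2 and became 41 without P6 ileum replicate 4. The median log2 fold change (P36 over P6) of the 45 genes was 0.94 in the jejunum and 1.56 in the ileum, beside -0.01 and -0.03 over all genes tested. An absolute log2 fold change above 2 together with a passing test was reached by 1 gene (Ccnd1) in the jejunum and 10 in the ileum, beside 16.4% of all genes tested in either region.

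**Figure D1:**
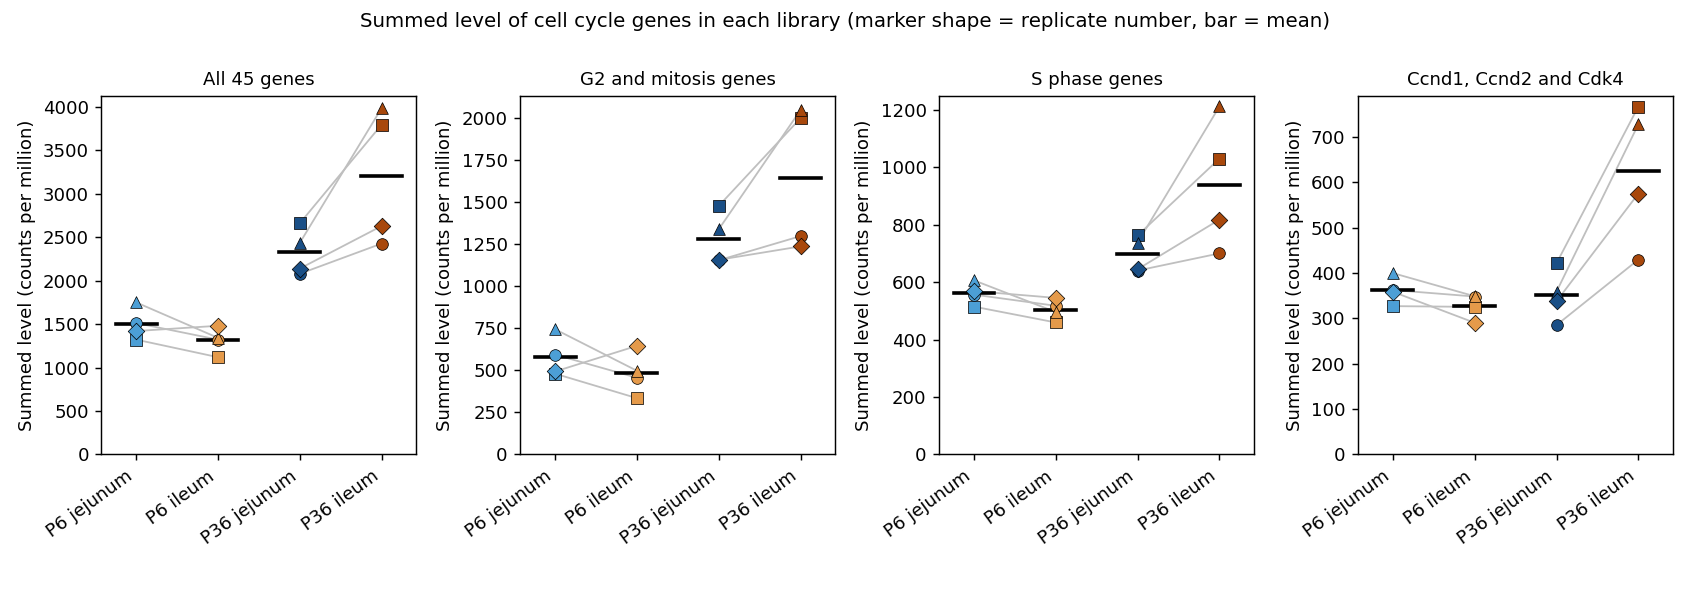
Summed level in CPM (vertical axis) of all 45 cell cycle genes, the 23 genes of G2 and mitosis, the 19 genes of S phase and the 3 G1 genes in each of the 16 libraries (points, marker shape by replicate number, grey lines joining the 2 regions of a mouse, black bars the group means). Each P36 point of the full list lies above each P6 point. From jejunum to ileum the lines of the full list fall in 3 of 4 mice at P6 (replicate 4 rises from 1419.9 to 1480.4 CPM) and rise in 4 of 4 at P36.

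The 30 genes that rose in the jejunum all rose in the ileum too, so that they made up 100% of the jejunal list and 76.9% of the ileal list. The fitted log2 change with age was higher in the ileum than in the jejunum for 43 of 45 genes. These include Cdk4, Mcm6 and E2f1, whose fitted changes were negative in both regions. One gene fell in both regions (Cdk4), one fell in the jejunum and rose in the ileum (Mcm2), and 5 passed in neither (Ccne1, Ccne2, Mcm6, Pcna and E2f1). By phase, 22 of the 23 genes of G2 and mitosis rose in the jejunum (median log2 fold change 1.16), and 23 of 23 rose in the ileum (median 1.77). Of the 19 S phase genes, 7 rose and 1 fell in the jejunum (median 0.31) and 14 rose in the ileum (median 1.11). As a fold, the median member of the G2 and mitosis set was 2.23 times higher at P36 in the jejunum and 3.40 times in the ileum, and the median S phase member 1.24 and 2.15 times. The ratio of the summed G2 and mitosis level to the summed S phase level was 0.728 to 1.23 in the 8 P6 libraries and 1.51 to 1.94 in the 8 P36 libraries, so the ages did not overlap.

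The promoters were searched for short motifs known from cell cycle genes. The window from 250 bases before to 50 bases after the start was available from RefSeq (GRCm38.p6) for 34 of the 45 genes, and Mcm7 and E2f2 had more than 1 window. It was searched on both strands for the cell cycle genes homology region (CHR, TTTGAA), bound by the MuvB complex, for the CCAAT box, bound by NF-Y, and for 4 spellings of an E2F site (TTTCCCGC, TTTCGCGC, TTTGCCGC and TTTGGCGC), which can overlap each other on opposite strands. The CHR letters stood in the window of 12 of 17 genes of G2 and mitosis and 2 of 16 S phase genes (Mcm2 and E2f2), against 17.9% of all 32851 windows and 14.4% of the 10219 tested genes with a window. An E2F spelling stood in 8 of 16 S phase genes (Cdk2, Cdc6, Cdt1, Mcm3, Mcm5, Mcm6, Mcm7 and E2f2) and in 1 of 17 of G2 and mitosis (Cdk1), against 2.26% of all windows and 4.47% of tested genes. A CCAAT box stood in 15 of 17 and 10 of 16, against 37.4% and 42.8%. The 14 genes with the CHR had a median log2 fold change from P6 to P36 of 1.15 (jejunum) and 1.98 (ileum), and the 9 with an E2F spelling 0.38 and 1.36. The 7 with none of the 3 motifs (Ccne1, Cdk4, Tyms, Birc5, Nusap1, E2f1 and Mybl2) had 0.32 and 1.13, and the 11 with no window 0.95 and 1.72. A match is a description of letters and shows no binding.

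The promoters of 7 genes are printed from 160 bases before to 30 bases from the start, 5′ to 3′ on the gene's strand, with the CHR and E2F letters in capitals: Ccnb2, Cenpa and Cdc20 for the mitotic genes with a CHR, Cdk1 with both motifs, Cdc6 and Mcm5 for the licensing genes with an E2F spelling, and Mcm2, the helicase subunit with a CHR and no E2F spelling in its window. In GRCm38.p6 they lie at chr9:70421525-70421714 on the minus strand (Ccnb2), chr5:30666726-30666915 on the plus strand (Cenpa), chr4:118437314-118437503 on the minus strand (Cdc20), chr10:69352883-69353072 on the minus strand (Cdk1), chr11:98907991-98908180 on the plus strand (Cdc6), chr8:75109349-75109538 on the plus strand (Mcm5) and chr6:88898751-88898940 on the minus strand (Mcm2).
Ccnb2: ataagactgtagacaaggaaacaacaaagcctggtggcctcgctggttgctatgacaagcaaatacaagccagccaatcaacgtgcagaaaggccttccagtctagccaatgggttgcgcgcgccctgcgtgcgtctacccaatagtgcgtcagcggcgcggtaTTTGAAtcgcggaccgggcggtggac
Cenpa: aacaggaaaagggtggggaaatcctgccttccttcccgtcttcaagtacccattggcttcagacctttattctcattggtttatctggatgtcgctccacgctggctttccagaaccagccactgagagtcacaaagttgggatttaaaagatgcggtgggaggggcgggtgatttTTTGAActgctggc
Cdc20: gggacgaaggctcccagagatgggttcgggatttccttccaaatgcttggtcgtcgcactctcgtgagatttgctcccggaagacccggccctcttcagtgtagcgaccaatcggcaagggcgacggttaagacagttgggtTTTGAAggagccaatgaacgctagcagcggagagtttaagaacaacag
Cdk1: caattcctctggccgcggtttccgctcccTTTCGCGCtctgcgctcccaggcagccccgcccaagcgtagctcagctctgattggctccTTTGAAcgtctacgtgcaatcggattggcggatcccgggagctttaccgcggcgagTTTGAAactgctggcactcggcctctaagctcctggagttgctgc
Cdc6: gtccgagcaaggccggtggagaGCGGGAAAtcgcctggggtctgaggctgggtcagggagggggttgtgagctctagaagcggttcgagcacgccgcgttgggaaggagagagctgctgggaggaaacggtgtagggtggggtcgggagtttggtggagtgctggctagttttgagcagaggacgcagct
Mcm5: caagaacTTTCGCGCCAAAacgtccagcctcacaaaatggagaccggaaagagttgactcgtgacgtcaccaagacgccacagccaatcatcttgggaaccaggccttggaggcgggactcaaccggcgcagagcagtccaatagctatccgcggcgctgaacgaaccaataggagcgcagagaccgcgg
Mcm2: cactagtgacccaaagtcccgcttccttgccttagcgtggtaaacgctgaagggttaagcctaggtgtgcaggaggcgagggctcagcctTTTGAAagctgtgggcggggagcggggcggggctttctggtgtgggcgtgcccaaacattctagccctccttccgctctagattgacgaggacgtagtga

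Among the G1 genes, the catalytic subunit and its cyclin moved in opposite directions. Ccnd1 (cyclin D1, the growth-factor-responsive partner of Cdk4; mm10 chr7:144929931-144939925) was at 27.0, 18.9, 32.5 and 20.6 CPM in the P6 jejunum, against 44.6, 30.7, 39.0 and 30.9 CPM in ileum of that age. At P36 it stood at 81.9, 133, 114 and 109 CPM in the jejunum and 167, 283, 309.8 and 225 CPM in the ileum. No P6 library reached a P36 library, and the log2 fold change was 2.15 ± 0.23 (SE) for jejunum (adjusted p = 1.04e-06) and 2.76 ± 0.23 for ileum (adjusted p = 8.43e-08). Cdk4 itself was at 222, 199.8, 218 and 207 CPM in the P6 jejunum, against 89.0, 97.6, 101 and 97.1 CPM in the P36 jejunum. These values did not overlap, and the log2 fold change was -1.14 ± 0.19 (fold change 0.455, adjusted p = 1.21e-04). In the ileum Cdk4 had 164, 183, 181 and 98.6 CPM at P6 and 76.2, 114, 138 and 98.5 CPM at P36, where the low P6 value is replicate 4. The ileal change of -0.55 ± 0.19 (adjusted p = 0.0208) was lost on leaving out any 1 of 5 of the 8 libraries (P6 ileum replicates 1, 2 and 3, P36 ileum replicates 1 and 4), with adjusted p up to 0.0713. The ratio of Ccnd1 to Cdk4 counts, which takes no account of gene length, was 0.0947 to 0.313 at P6 and 0.921 to 2.49 at P36. Per kilobase of gene model, Cdk4 had the higher mean in the P36 jejunum (71.5 against 28.9 CPM per kb). In the P36 ileum the 2 means, 79.2 ± 19.3 and 64.8 ± 16.8 (SD, n = 4), lay within their spread. Ccnd2 (cyclin D2) rose in the ileum only by the test (log2 fold change 1.01 ± 0.21, adjusted p = 6.19e-04), and its jejunal value was 0.21 ± 0.20, while the difference between these 2 changes, 0.80 ± 0.29, did not pass (adjusted p = 0.102).

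The cyclin E genes did not pass in either region. Ccne1 and Ccne2, the cyclin E genes that bring Cdk2 into S phase, had log2 fold changes of 0.23 ± 0.18 and 0.21 ± 0.26 (jejunum) and of 0.22 ± 0.18 and 0.42 ± 0.26 (ileum), none of which passed. Cdk2 was at 19.0, 19.1, 23.6 and 20.9 CPM in the P6 jejunum, against 23.8, 26.8, 27.6 and 24.4 CPM in the P36 jejunum (0.31 ± 0.14, adjusted p = 0.0713). Its ileal libraries held 18.5, 14.9, 18.4 and 18.1 CPM at P6 against 29.5, 44.7, 39.7 and 37.2 CPM at P36 (1.11 ± 0.14, adjusted p = 6.45e-06). Both regions showed no overlap between ages for Cdk2, yet only the ileal rise passed. Cyclin A2, which acts in both S phase and G2, and the B cyclins rose in both regions, Ccna2 by 1.38 ± 0.21 and 2.01 ± 0.22, Ccnb1 by 1.26 ± 0.20 and 1.82 ± 0.21, and Ccnb2 by 1.43 ± 0.18 and 2.43 ± 0.19 (jejunum and ileum). Cdk1, the mitotic kinase, rose by 1.06 ± 0.18 and 1.75 ± 0.19.

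The 3 regulators of Cdk1 activation and anaphase rose in both regions. Cdc20, the activator of the anaphase-promoting complex, was at 18.1, 12.8, 17.5 and 13.3 CPM in the P6 jejunum, against 12.2, 11.6, 16.1 and 5.74 CPM in ileum of that age. At P36 it reached 40.0, 44.4, 46.9 and 44.7 CPM in the jejunum and 56.9, 79.2, 87.9 and 65.4 CPM in the ileum. All 8 P36 values lay above all 8 P6 values, with a log2 fold change of 1.51 ± 0.24 for jejunum (adjusted p = 6.62e-05) and 2.66 ± 0.25 for ileum (adjusted p = 2.37e-07). Ube2c, the ubiquitin-conjugating enzyme that works with that complex, rose by 1.42 ± 0.16 and 2.21 ± 0.16, and Cdc25c, the phosphatase that removes the inhibitory phosphates from Cdk1, by 1.45 ± 0.22 and 1.88 ± 0.22.

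**Figure D2:**
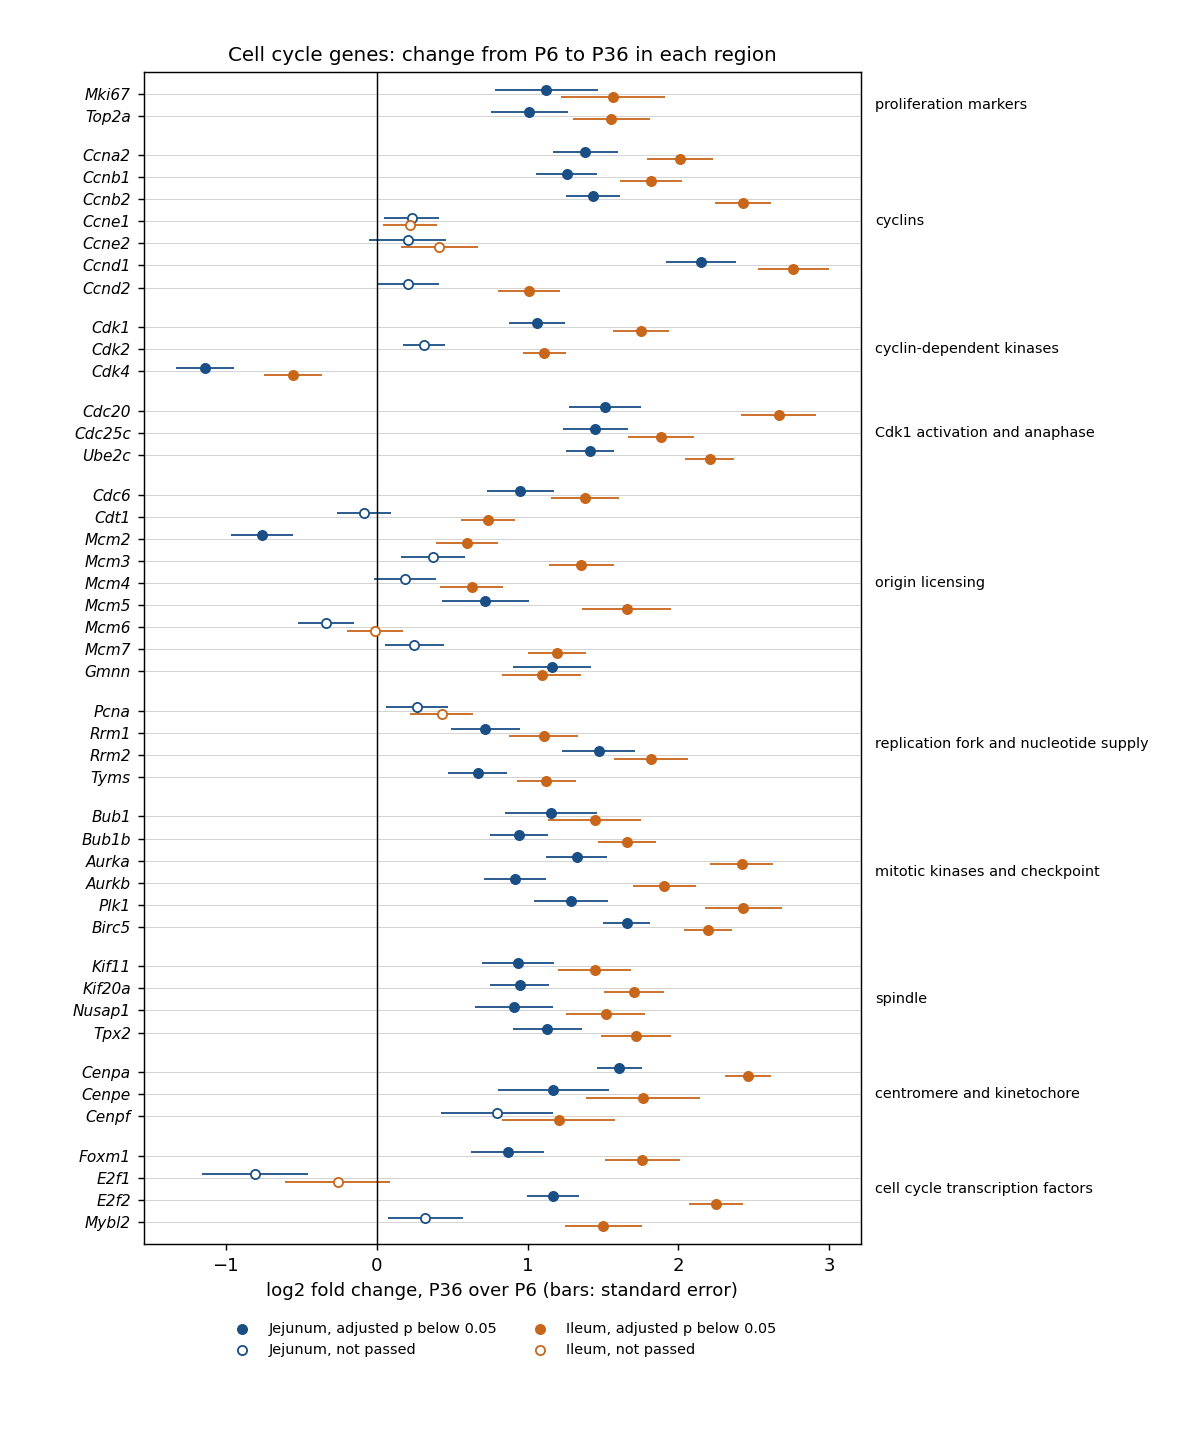
Log2 fold change from P6 to P36 (horizontal axis, bars the standard error) of each of the 45 genes in the jejunum (blue) and the ileum (orange), grouped by role, with filled points where the adjusted p was below 0.05. The points of G2 and mitosis lie between 0.80 and 2.66, while Cdk4 lies left of zero in both regions and Mcm2 lies left of zero in the jejunum and right of it in the ileum.

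Of the 9 origin licensing genes, 3 rose and 1 fell in the jejunum (median 0.25) and 8 rose in the ileum (median 1.09). The difference between the regional changes passed for Mcm2 and Mcm7 and not for the other 7, with adjusted p of 0.0557 (Mcm3), 0.0567 (Cdt1) and 0.181 (Mcm5) the nearest. Cdc6, the loader of the helicase, rose in both regions (0.95 ± 0.22 and 1.38 ± 0.22). Cdt1, its partner, had -0.09 ± 0.18 in the jejunum and rose by 0.74 ± 0.18 in the ileum. Gmnn (geminin), the inhibitor of Cdt1, was at 12.0, 13.4, 7.93 and 16.6 CPM in the P6 jejunum and went to 29.6, 27.9, 28.9 and 25.6 CPM in the P36 jejunum. Its ileal libraries went from 8.89, 11.4, 5.15 and 14.5 CPM to 20.6, 21.0, 24.9 and 18.8 CPM. It rose by 1.16 ± 0.26 (adjusted p = 0.00137) and 1.09 ± 0.26 (adjusted p = 0.0021), with every P36 library above every P6 library.

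The 6 subunits of the Mcm2-7 ring, which is built in equal parts, did not move alike. Mcm2 (mm10 chr6:88883474-88898780) stood at 56.1, 61.1, 60.8 and 61.5 CPM in the P6 jejunum, against 34.2, 37.2, 37.8 and 32.2 CPM in the P36 jejunum. The ages did not overlap there, and the log2 fold change was -0.76 ± 0.21 (adjusted p = 0.00565). In the ileum it went the other way, from 42.9, 35.4, 39.1 and 22.1 CPM to 36.9, 59.1, 71.9 and 43.3 CPM (0.60 ± 0.21, adjusted p = 0.021), where the ages overlapped and the call was lost without P36 ileum replicate 2 or 3 (adjusted p up to 0.0877). Mcm6 was at 96.1, 82.4, 103 and 100.3 CPM in the P6 jejunum, against 69.3, 81.0, 81.6 and 71.1 CPM in the P36 jejunum. The ages did not overlap, but the change was -0.33 ± 0.19 and did not pass (adjusted p = 0.147), and the ileal change was -0.01 ± 0.19. Mcm5 rose in both regions (0.72 ± 0.29, adjusted p = 0.0472, and 1.66 ± 0.29, adjusted p = 1.91e-04), though the jejunal call held on leaving out only 1 of the 8 libraries in turn. Mcm3, Mcm4 and Mcm7 had jejunal changes of 0.38 ± 0.21, 0.19 ± 0.21 and 0.25 ± 0.19 that did not pass and rose in the ileum by 1.36 ± 0.22, 0.63 ± 0.21 and 1.20 ± 0.20. Per kilobase of gene model, Mcm6 had the highest mean of the 6 subunits in each group. It stood at 32.9 ± 3.15 (SD, n = 4) CPM per kb against 20.9 ± 2.61 for Mcm7, the next, in the P6 jejunum, whereas in the P36 ileum the 2 means, 35.0 ± 10.4 and 34.7 ± 8.48 CPM per kb, lay within their spread.

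**Figure D3:**
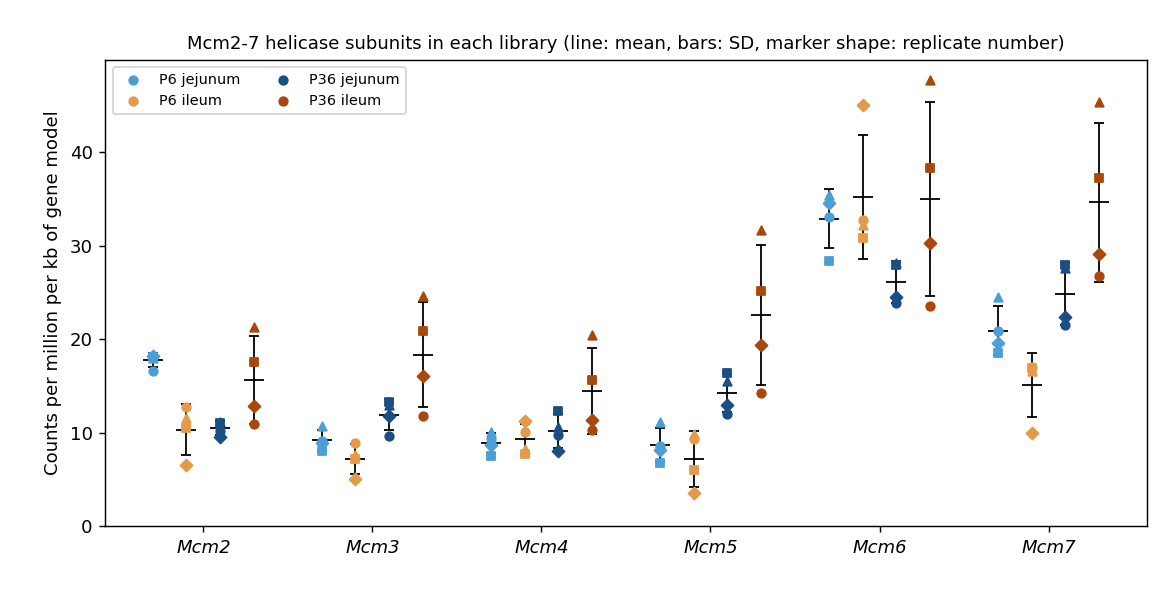
Level of Mcm2 to Mcm7 in CPM per kb of gene model (vertical axis) in each library (points, coloured by group, marker shape by replicate number) with the mean and SD of each group (n = 4). The mean of Mcm2 is highest in the P6 jejunum (17.8 ± 0.747 CPM per kb), whose 4 points lie close together, whereas those of Mcm3, Mcm5 and Mcm7 are highest in the P36 ileum, where replicates 2 and 3 lie above replicates 1 and 4.

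At the replication fork, Pcna, the sliding clamp of DNA polymerase, was the next most abundant member per kilobase after Cdk4 in the P6 jejunum (57.8 ± 4.68 against 157 ± 7.55 CPM per kb, SD, n = 4) and in the P6 ileum (61.3 ± 16.9 against 116 ± 29.4). At P36 the 2 genes lay within their spread, at 69.5 ± 8.66 (Pcna) and 71.5 ± 3.83 CPM per kb (Cdk4) in the jejunum and 82.6 ± 26.3 and 79.2 ± 19.3 in the ileum. Its log2 changes with age of 0.27 ± 0.21 and 0.43 ± 0.21 did not pass. The genes of nucleotide supply rose in both regions. Rrm2, the small subunit of ribonucleotide reductase made chiefly in S phase, was at 12.6, 8.79, 13.4 and 13.2 CPM in the P6 jejunum, against 31.5, 38.8, 33.4 and 29.3 CPM in the P36 jejunum (1.47 ± 0.24, adjusted p = 9.33e-05), and it rose by 1.82 ± 0.24 in the ileum. Rrm1, the large subunit, rose by 0.72 ± 0.23 and 1.11 ± 0.23, and Tyms (thymidylate synthase) by 0.67 ± 0.20 and 1.13 ± 0.20.

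All 6 mitotic kinase and checkpoint genes and all 4 spindle genes rose in both regions. Aurka, the kinase of the spindle poles, rose by 1.33 ± 0.20 (jejunum) and 2.42 ± 0.21 (ileum), and Plk1 (polo-like kinase 1) by 1.29 ± 0.25 and 2.43 ± 0.26. Birc5 (survivin), which targets Aurkb to the centromere, was at 19.1, 14.5, 19.6 and 15.4 CPM in the P6 jejunum, against 53.0, 59.3, 51.5 and 52.5 CPM in the P36 jejunum. In ileum it went from 12.0, 9.74, 12.3 and 14.5 CPM to 44.7, 63.1, 62.7 and 52.2 CPM. The ages stood well apart in each region (1.66 ± 0.16, adjusted p = 2.34e-07, and 2.20 ± 0.16, adjusted p = 1.38e-08). Aurkb, the kinase of the centromere, rose by 0.92 ± 0.20 and 1.91 ± 0.21. The checkpoint genes Bub1 and Bub1b rose by 1.16 ± 0.31 and 0.94 ± 0.19 (jejunum) and by 1.45 ± 0.31 and 1.66 ± 0.20 (ileum). The motor Kif11 rose by 0.94 ± 0.24 and 1.44 ± 0.24, the cytokinesis motor Kif20a by 0.95 ± 0.20 and 1.70 ± 0.20. The microtubule-binding proteins Nusap1 and Tpx2 rose by 0.91 ± 0.26 and 1.13 ± 0.23 (jejunum) and by 1.52 ± 0.26 and 1.72 ± 0.23 (ileum).

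Cenpa, the histone H3 variant that marks the centromere, gave the smallest adjusted p of the 45 genes in the ileum. It was at 10.3, 9.95, 10.6 and 9.81 CPM in the P6 jejunum, against 6.27, 6.29, 7.92 and 5.64 CPM in ileum of that age. At P36 it reached 26.5, 35.4, 32.5 and 29.4 CPM in jejunum, against 28.5, 38.9, 41.4 and 35.0 CPM in ileum. At P6 every jejunum library lay above every ileum library, and at P36 all lay higher still, with changes of 1.61 ± 0.15 (adjusted p = 2.22e-07) and 2.46 ± 0.16 (adjusted p = 2.9e-09). The kinetochore genes Cenpe and Cenpf were noisier. Cenpe rose by 1.17 ± 0.37 and 1.77 ± 0.38, and Cenpf was the 1 gene of G2 and mitosis that did not pass in the jejunum (0.80 ± 0.37, adjusted p = 0.0828) while it rose in the ileum (1.21 ± 0.37, adjusted p = 0.0119).

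The proliferation markers also differed between libraries of a group. Mki67, present in all dividing cells, was at 114, 91.6, 155 and 79.2 CPM in the P6 jejunum, against 212, 286, 240.2 and 220.2 CPM in the P36 jejunum. In ileum it went from 91.5, 43.0, 102 and 148 CPM to 253, 383, 359 and 143 CPM. P36 ileum replicate 4 lay below the highest P6 ileum library, and the rise was 1.12 ± 0.34 for jejunum (adjusted p = 0.0113) and 1.57 ± 0.34 for ileum (adjusted p = 0.00112). Top2a, the topoisomerase that untangles chromosomes, rose by 1.01 ± 0.25 and 1.56 ± 0.26. Mki67, Cenpe and Cenpf had the longest gene models of the list (10075, 7813 and 11122 bases). They were low together in P6 ileum replicate 2 and P36 ileum replicate 4. Their log2 deviations from the group mean were -1.026, -0.952 and -1.125 in the first and -0.891, -1.246 and -1.066 in the second. Over the 45 genes, Spearman's rho of deviation with length was -0.603 and -0.231 there, and 0.564 in P6 jejunum replicate 3. The part of length in this spread was not tested.

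The E2F factors separated. E2f2 was at 31.9, 34.4, 32.9 and 28.1 CPM in the P6 jejunum, against 62.6, 71.6, 70.8 and 80.7 CPM in the P36 jejunum. In ileum it went from 22.2, 19.5, 26.7 and 13.0 CPM to 87.4, 104, 91.5 and 104 CPM. Its groups did not overlap, and it rose by 1.17 ± 0.17 (adjusted p = 3.31e-05) and 2.25 ± 0.18 (adjusted p = 3.7e-08). E2f1 was at 10.6, 11.6, 10.7 and 9.48 CPM in the P6 jejunum, against 4.59, 8.07, 6.73 and 4.80 CPM in the P36 jejunum. It was lower in each P36 library, but the change of -0.81 ± 0.35 did not pass (adjusted p = 0.0665). In the ileum it had 13.7, 12.6, 11.9 and 2.80 CPM at P6 and 6.69, 9.53, 10.5 and 7.52 CPM at P36 (-0.26 ± 0.35), where P6 replicate 4 alone lay below the P36 range. The ratio of E2f2 to E2f1 counts was 1.55 to 4.65 in the P6 libraries and 8.72 to 16.8 in the P36 libraries. Foxm1, the activator of G2 and mitosis genes, rose by 0.87 ± 0.24 and 1.76 ± 0.25, and Mybl2 (B-Myb), a partner of the MuvB complex, rose in the ileum by 1.50 ± 0.25 with 0.32 ± 0.25 in the jejunum.

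The 11 genes of the stem cell list moved in both directions, with 3 that rose and 3 that fell in the jejunum and 5 that rose and 1 that fell in the ileum. They summed to 478 to 929.6 CPM at P6 and 853 to 1599 CPM at P36, while Lgr5, the receptor that marks crypt base stem cells, fell in both regions (-1.90 ± 0.27, adjusted p = 2.52e-05, and -0.87 ± 0.26, adjusted p = 0.00977). Smoc2 rose by 1.62 ± 0.22 and 1.92 ± 0.22, Lrig1 by 1.53 ± 0.23 and 2.12 ± 0.23, and Cd44 by 1.53 ± 0.33 and 1.68 ± 0.33, whereas Ascl2 had -0.64 ± 0.39 and -0.12 ± 0.39 and did not pass. Rnf43 (-0.68 ± 0.21, adjusted p = 0.0131) and Sox9 (-0.64 ± 0.25, adjusted p = 0.0434) also fell in the jejunum, and Olfm4 (1.18 ± 0.36, adjusted p = 0.0108) and Axin2 (0.83 ± 0.28, adjusted p = 0.0204) rose in the ileum. The 6 Paneth cell genes summed to 29.0 to 814 CPM at P6 and 4418 to 15143 CPM at P36. Most of the spread at P6 was Itln1, an intestinal lectin, at 782, 7.09, 557 and 4.36 CPM in the jejunum (replicates 1 to 4) and 620, 10.3, 435 and 8.09 CPM in the ileum. It was high in replicates 1 and 3, whose mouse names share a prefix, and Lyz1, the Paneth cell lysozyme, did not follow it, at 6.03 to 13.1 CPM and 16.9 to 20.3 CPM. The summed cell cycle level was higher in replicates 1 and 3 than in 2 and 4 in the P6 jejunum but not in the P6 ileum, where replicate 4 was highest. Myeloid genes summed to 167 to 511 CPM at P6, most of it Csf1r, and 10.8 to 29.3 CPM at P36. Csf1r alone was at 152 to 498 CPM at P6, and the other myeloid genes were far lower there. Adgre1 was at 0.0436 to 2.46 CPM, Lyz2 at 0.444 to 3.02 CPM and Itgax at 0.217 to 2.41 CPM. Cd14 was at 0.392 to 16.8 CPM and Cd68 at 5.57 to 24.99 CPM. Whether the Csf1r level came from myeloid cells was not tested. The myeloid list moved in both directions with age. Csf1r (-7.79 ± 0.42 and -7.83 ± 0.43) and Cd68 (-1.84 ± 0.43 and -2.52 ± 0.44) fell in jejunum and ileum. Lyz2 (2.71 ± 0.79, adjusted p = 0.00884) and Itgax (2.34 ± 0.69, adjusted p = 0.00957) rose in the jejunum. T cell genes summed to 81.8, 7.99, 111 and 10.8 CPM in the P36 jejunum and 4.37 to 7.51 CPM in the P36 ileum, against 1.28 to 8.67 CPM at P6. B cell genes summed to 2.43 to 41.7 CPM in the P36 jejunum and 2.54 to 48.4 CPM in the P36 ileum, against 0.262 to 4.36 CPM at P6. The part of these cell types in the age changes was not tested.

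Between the regions at P6, the fitted differences of the cell cycle genes leaned towards the jejunum. The count of calls was near the share of all genes that passed on that side. In total 7 of 45 passed on the jejunal side and 0 on the ileal side (13 had an unadjusted p below 0.05, and DESeq2 gave 8 and 0), where 25.9% of all genes tested passed (11.1% on the jejunal and 14.8% on the ileal side). None of the 7 differed by more than 2 on the log2 scale, as 6.5% of all genes tested did. Those 7 were Mcm2 (log2 fold change jejunum over ileum 0.78 ± 0.21, adjusted p = 0.0108), E2f2 (0.65 ± 0.17, adjusted p = 0.0114), Ccnb2 (0.64 ± 0.18, adjusted p = 0.0153), Cenpa (0.64 ± 0.15, adjusted p = 0.00504), Aurka (0.63 ± 0.20, adjusted p = 0.0306), Ube2c (0.58 ± 0.16, adjusted p = 0.0132) and Birc5 (0.50 ± 0.15, adjusted p = 0.0254). Ccnb2 stood at 18.4, 14.5, 17.1 and 14.0 CPM in the P6 jejunum, against 11.7, 11.5, 10.2 and 7.55 CPM in ileum of that age, all 4 jejunal values above all ileal ones. The groups stood apart in this direction for 10 of 45 genes, beside 15% of all genes tested. The fitted difference was positive for 35 of 45, with a median of 0.24 beside -0.05 over all genes tested. When libraries were scaled to their totals alone, the median of all genes moved to -0.33 and that of the 45 genes to -0.04, 0 passed higher in the jejunum and 2 (Ccnd1 and Ccne1) in the ileum. The gap between the 2 medians was thus kept while the calls were not. Aurka kept its call on leaving out only 2 of the 8 libraries and Birc5 only 3, and without P6 jejunum replicate 1 the count was 4.

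Within mice, 37, 38, 42 and 21 of the 45 genes were higher in the jejunum at P6 (replicates 1 to 4), so that 3 mice leaned one way and replicate 4, whose ileum library followed GC content, was split. The difference passed for 6 genes without P6 ileum replicate 4 and for 5 without P6 ileum replicate 2. With the mouse as a block 9 passed higher in the jejunum and 1, Ccnd1, in the ileum. After a correction of each library for GC content, chosen after the data were seen, 11 passed, and 17 with the block added, where Ccnd1 was again higher in the ileum. That correction also raised the number of all genes called, from 3484 to 4984, and to 5595 with the block added. The block alone called 3622 of all genes.

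**Figure D4:**
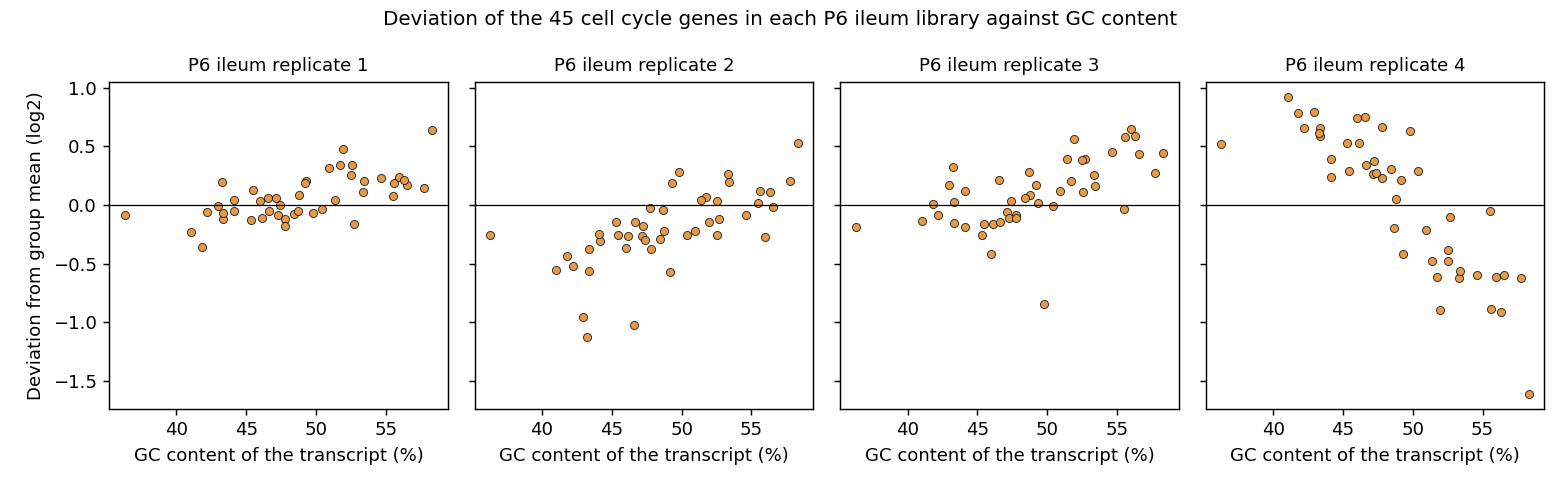
Deviation of each of the 45 genes from its group mean (vertical axis, log2) against the GC content of its transcript (horizontal axis, percent) in the 4 P6 ileum libraries. In replicate 4 the points fall from upper left to lower right (rho -0.872), and in the other 3 libraries they rise (rho 0.642 to 0.729). All deviations are taken from the mean of the 4 libraries.

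At P36 the fitted differences leaned the opposite way, and the count of calls was again near the share of all genes that passed on that side. Of the 45 genes, 5 were higher in the ileum and 0 in the jejunum (18 had an unadjusted p below 0.05, and DESeq2 gave 8 higher in the ileum and 0 in the jejunum), where 16.1% of all genes tested passed (7.8% on the ileal and 8.3% on the jejunal side). None of the 5 differed by more than 2 on the log2 scale, as 3.6% of all genes tested did. With the mouse as a block the count was 8. The fitted difference was negative for 44 of 45 genes, with a median of -0.42 beside -0.04 over all genes tested, and Gmnn alone was on the jejunal side (0.39 ± 0.26, adjusted p = 0.345). The 5 were Ccnd1 (-1.17 ± 0.22, adjusted p = 0.00184), Ccnd2 (-0.91 ± 0.21, adjusted p = 0.00624), Cdk2 (-0.56 ± 0.14, adjusted p = 0.0117), Cdc20 (-0.72 ± 0.23, adjusted p = 0.0473) and the cytokinesis motor Kif20a (-0.66 ± 0.19, adjusted p = 0.0295). For Ccnd1 the 4 ileal values of 167 to 309.8 CPM lay above the 4 jejunal values of 81.9 to 133 CPM. Ccnd2 had 114, 190.4, 143 and 131 CPM in the jejunum and 186, 369, 279.6 and 252 CPM in the ileum, where the lowest ileal and the highest jejunal library crossed. The groups stood apart in this direction for 6 of 45 genes, near the 13.5% of all genes tested. On the jejunal side they stood apart for 1 gene (Gmnn), beside 13.5% of all genes tested there too.

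Mice differed in how far their ileum exceeded their jejunum. At P36, 34, 44, 44 and 38 of 45 genes were higher in the ileum (replicates 1 to 4), and the jejunum over ileum ratio of the summed level was 0.857, 0.701, 0.611 and 0.814. Replicates 2 and 3 had the highest cell cycle sums in the ileum (3794 and 3984 CPM), and the 6 enterocyte genes, which mark the differentiated villus, summed there to 10209 and 3457 CPM, against 27801 and 11973 CPM in replicates 1 and 4. This sum also carries region, since Apoa1 (log2 jejunum over ileum 1.85 at P6 and 1.63 at P36) and Apoa4 (3.25 and 5.05) passed at both ages. Slc27a4 passed at neither. At P6 the sum was 90388 to 111600 CPM in the jejunum and 9611 to 20737 CPM in the ileum. The part of the villus share in the regional difference was not tested. Without P36 ileum replicate 1 the count rose to 14, and it was 2 without replicate 2, and 3 without replicate 3 or without P36 jejunum replicate 1, 3 or 4. Ccnd1 and Ccnd2 kept their calls without any 1 of the 8 libraries and under all 9 alternatives other than the fold threshold, Cdk2 lost its call only without P36 ileum replicate 2 (adjusted p = 0.0599), Kif20a held in 3 of 8 and Cdc20 in 1 of 8.

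**Figure D5:**
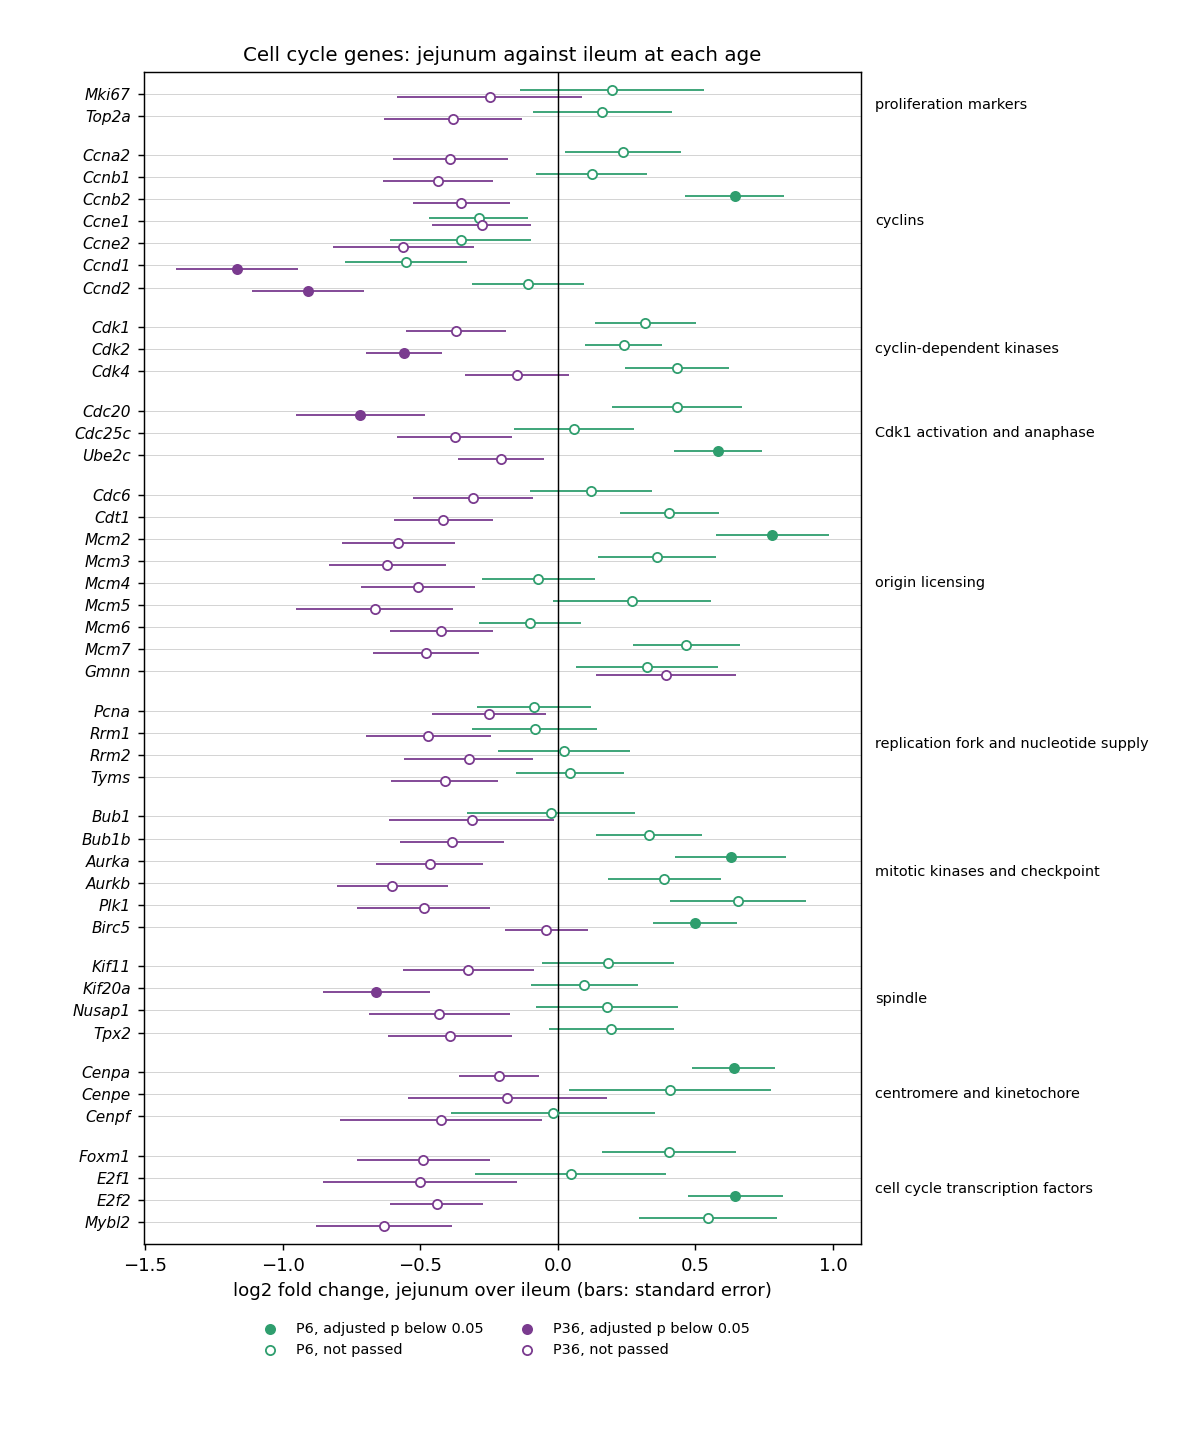
Log2 fold change of jejunum over ileum (horizontal axis, bars the standard error) of each of the 45 genes at P6 (green) and P36 (purple), grouped by role, with filled points where the adjusted p was below 0.05. The P6 points lie mostly right of zero (35 of 45) and the P36 points left of it (44 of 45).

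The change of the regional difference with age was itself tested. The interaction, the P6 minus the P36 log2 difference of jejunum over ileum, equals the ileal minus the jejunal change with age. It was positive for 43 of 45 genes, the same as those with the higher ileal change above. Its median was 0.61 beside -0.02 over all genes tested. It passed for 11 genes in that direction and for 0 in the other (22 had an unadjusted p below 0.05, and DESeq2 gave 14 and 0), where 8.69% of all genes tested passed (3.68% in that direction and 5.01% in the other). None reached an absolute value above 2, as 3.37% of all genes tested did. Mcm2 (1.36 ± 0.29, adjusted p = 0.00773) and E2f2 (1.08 ± 0.24, adjusted p = 0.0101) passed without any 1 of the 16 libraries and under all 8 alternatives other than the fold threshold. Cenpa (0.85 ± 0.21, adjusted p = 0.0178), Cdk2 (0.80 ± 0.20, adjusted p = 0.0188), Ccnb2 (0.99 ± 0.25, adjusted p = 0.0218) and Aurka (1.10 ± 0.28, adjusted p = 0.023) passed in 11 to 15 of the 16 leave-one-out fits. Ube2c (0.79 ± 0.22), Mcm7 (0.95 ± 0.27), Cdc20 (1.15 ± 0.33), Aurkb (0.99 ± 0.29) and Mybl2 (1.18 ± 0.35), with adjusted p of 0.0372 to 0.0492, passed in 3 to 5. The count of 11 became 20 without P6 ileum replicate 4, 17 without P36 ileum replicate 1 and 2 without P36 ileum replicate 2. It was 4 to 7 without P6 jejunum replicate 1, 3 or 4, P6 ileum replicate 1 or 2, any 1 P36 jejunum library or P36 ileum replicate 3, and scaling to library totals alone gave 2.

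The rest of the pathway was read from a longer list. Of 99 further cell cycle genes, 98 were tested (Cdkn2a had 59 counts in all 16 libraries), of which 47 rose and 13 fell with age in the jejunum (median log2 fold change 0.58) and 67 rose and 8 fell in the ileum (median 1.08). Over all genes tested 24.7% rose and 26.9% fell in the jejunum, and 25.5% and 30.1% in the ileum. Among 33 further mitosis genes 28 rose and 2 fell in the jejunum and 30 rose in the ileum, and among 22 of the replication fork 6 rose and 1 fell in the jejunum and 15 rose in the ileum. Between regions 14 of 98 passed on the jejunal and 5 on the ileal side at P6, near the 11.1% of all genes tested on the jejunal side and below the 14.8% on the ileal side, and 1 and 9 at P36, below 8.3% and near 7.8%. The interaction passed for 16 of 98, beside 3.68% of all genes tested in that direction, all towards the jejunum at P6, led by Cdc25b (1.14 ± 0.20, adjusted p = 0.00213), Kif22 (1.38 ± 0.25, adjusted p = 0.0023), E2f8 (1.28 ± 0.23, adjusted p = 0.00257), Spc24 (1.28 ± 0.25, adjusted p = 0.00359) and Espl1, the separase that cuts cohesin (2.16 ± 0.49, adjusted p = 0.0109). Not all ran with the rest: Orc1, the largest subunit of the origin recognition complex, was at 3.66, 2.63, 5.41 and 3.21 CPM in the P6 jejunum, against 9.53, 9.26, 10.6 and 12.9 CPM in ileum of that age, higher in each ileum library (-1.51 ± 0.25, adjusted p = 3.69e-04), and E2f5, an E2F that acts mainly as a repressor, was also higher in the P6 ileum (-1.23 ± 0.19, adjusted p = 1.6e-04).

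Inhibitors of the kinases moved in both directions. Cdkn1c (p57, an imprinted inhibitor expressed from the maternal allele; mm10 chr7:143458339-143461050) was at 169, 240.0, 145 and 239.9 CPM in the P6 jejunum, against 2.29, 2.07, 1.89 and 1.65 CPM in the P36 jejunum. In ileum it went from 164, 213, 149.7 and 209.6 CPM to 1.99, 1.93, 1.14 and 2.37 CPM. The log2 fold change was -6.65 ± 0.26 for jejunum (adjusted p = 2.61e-11) and -6.65 ± 0.27 for ileum (adjusted p = 3.2e-11), the smallest adjusted p of the further list in both. Cdkn2c (p18, an inhibitor of Cdk4 and Cdk6) went from 0.735 to 1.79 CPM at P6 to 6.12 to 13.9 CPM at P36 (2.47 ± 0.26 and 3.00 ± 0.27). Cdkn2b (p15) rose by 1.40 ± 0.16 and 2.00 ± 0.16, Cdkn1a (p21) by 1.41 ± 0.25 and 1.20 ± 0.25, and Cdkn1b (p27) by 0.43 ± 0.14 in the ileum with 0.05 ± 0.14 in the jejunum, while Cdkn2d (p19) fell with -0.67 ± 0.25 in the jejunum and had -0.09 ± 0.25 in the ileum. Of the retinoblastoma family, Rb1 rose by 1.19 ± 0.18 and 0.54 ± 0.18, Rbl1 by 0.58 ± 0.16 in both regions, and Rbl2 did not pass (-0.21 ± 0.17 and -0.37 ± 0.17).

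Outside the 45 genes, the 5 of 13384 whose log2 level ran closest to the members' mean over the 16 libraries were Racgap1 (Pearson's r 0.991), Ncaph (0.989), Lmnb1 (0.989), Kif2c (0.988) and Asf1b (0.988). Racgap1, Ncaph and Kif2c were on the further cell cycle list, and Lmnb1, which encodes lamin B1, and Asf1b, a histone chaperone, were not. These libraries fall into 2 ages, which the r values share.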

How the data were processed

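Total RNA of EDTA-released small intestinal epithelium was sequenced by the authors from stranded mRNA libraries. Per the labels, reads were trimmed with Trimmomatic 0.38, aligned to mm10 with STAR (2.5.3 in the submitters' processing notes) and counted per gene with featureCounts of Subread 1.6.3, and the deposited values are raw counts per gene with no normalization. Each library has its own file, and no replicates were pooled. Groups came from the sample titles, and libraries of the same mouse carry the same replicate number. Total counts per library were 12159237 to 25947276.

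Counts were fitted together over 4 groups with edgeR 4.0.16 (TMM scaling, filterByExpr, glmQLFit and glmQLFTest, R 4.3.3), with Benjamini-Hochberg adjustment over 13429 genes and a threshold of 0.05. The error of a log2 fold change is its absolute value divided by the square root of the F statistic. CPM and CPM per kb were computed from the same scaling and the counted gene length. The script was tested on simulated counts.

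The 45 members, the further gene lists and the marker lists were chosen with earlier results of these data known. Of the other lists, the text names the kinase inhibitors, the retinoblastoma family and the 5 genes with the smallest adjusted p in a comparison, and it names the 5 genes closest to the members by correlation. Named stem cell, T cell, B cell and other markers come from lists whose sums are given. Overlapping and antisense genes were not treated apart.

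Replicate numbers pair the samples, since the 2 regions came from the same mouse. The correlation of deviations from the group mean between the 2 libraries of a mouse was 0.157 to 0.391 over all genes. Replicates of a group differed by more than sampling noise (chi-square per gene of 13.1 to 284). Alternatives were DESeq2 1.42.0, other scalings, no filter on low counts, sex as a covariate, the mouse as a block, only the 8 libraries compared, each library left out, and, added after the data were seen, a correction for GC content by a loess curve of span 0.3. Promoter windows and gene positions came from RefSeq (GRCm38.p6) and the count files (mm10).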

Additional observations from a re-analysis of the deposited data

Results flagged for a closer look

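Of 184 groups of 4 libraries examined (the 45 genes and their summed level), 11 held a library whose distance from the nearest other, as a share of the range of the group, exceeded Dixon's critical value, and chance alone flags about 1 group in 20. Of the 11, 6 were in P6 ileum replicate 4, the library whose deviations followed GC content. Ccna2 (44.0 CPM), Mcm6 (131 CPM), Pcna (109 CPM) and Tyms (23.4 CPM) were high there, and Mcm7 (23.9 CPM) and E2f1 (2.80 CPM) were low. P6 ileum replicate 2, the library with smooth muscle and fibroblast genes, was low for Cdk2 (14.9 CPM) and Cdc6 (3.15 CPM). The other 3 were Mcm2 in P6 jejunum replicate 1 (56.1 CPM, low), Bub1 in P6 jejunum replicate 3 (13.5 CPM, high) and Ccne1 in P6 ileum replicate 3 (11.3 CPM, high).

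For 11 genes the difference between jejunum and ileum changed with age in the interaction test of edgeR. The log2 value, P6 minus P36, was 1.36 for Mcm2, 1.18 for Mybl2, 1.15 for Cdc20, 1.10 for Aurka, 1.08 for E2f2, 0.99 for Ccnb2, 0.99 for Aurkb, 0.95 for Mcm7, 0.85 for Cenpa, 0.80 for Cdk2 and 0.79 for Ube2c.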

How the results depend on the processing

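The age counts (30 and 39 genes higher at P36) stayed within 1.5 times under each alternative run except the fold threshold, and the regional and interaction counts moved more. With library totals alone, 0 genes passed on the jejunal and 2 on the ileal side at P6, 9 in the ileum at P36, and the interaction passed for 2. It passed for 7 without the low-count filter and 7 with sex as a covariate. Requiring an absolute log2 fold change above 2 left 0 at P6, 0 at P36, 1 higher and 0 lower at P36 in the jejunum, 10 and 0 in the ileum, and 0 in the interaction. The replicate block gave 9 and 1 at P6, 8 at P36 and 15 in the interaction. Fitting only the 8 libraries compared gave 3 at P6, 1 (jejunum, Gmnn) and 8 (ileum) at P36, and 4 (jejunum) and 0 (ileum) higher at P6 with age. DESeq2 gave 8 at P36. GC correction gave 11 at P6 and 11 at P36, and with the replicate block 17 and 1 at P6, 1 (Gmnn) and 22 at P36 and 28 in the interaction. The calls over all genes rose too. At P6, at P36 and in the interaction, the main fit called 3484, 2163 and 1167 of 13429 genes, and the replicate block 3622, 2437 and 1294. GC correction called 4984, 3065 and 2553 of 12948 genes, and 5595, 3786 and 3183 with the block. DESeq2 called 4225, 2669 and 1714 of 18959 genes. Leaving out 1 library at a time gave 4 to 8 (jejunum) and 0 to 1 (ileum) at P6, 0 to 0 (jejunum) and 2 to 14 (ileum) at P36, 29 to 32 higher and 2 to 2 lower at P36 in the jejunum, 37 to 41 and 0 to 2 in the ileum, and 2 to 20 and 0 to 0 in the interaction. The lowest P36 ileum count was without P36 ileum replicate 2 and the highest without replicate 1. The cause of these moves was not tested. Across single genes, 1411 results kept their side of the threshold, 232 lost and 137 gained a call, and 0 changed direction while called. Each group has 4 mice, and p-values of the main fit rest on the spread between libraries of a group, pooled over the 4 groups. No other mice were examined here, and the main fit treated the 2 libraries of a mouse as independent. Sequencing depth (at least 43 counts per gene and library) was not low for any of the 45 genes.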
